A study of Rattus norvegicus with 36 samples.

Results

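The amino acid transporter genes described here were 10 solute carrier genes, *Slc7a1*, *Slc7a3*, *Slc7a5*, *Slc7a6*, *Slc3a2*, *Slc38a1*, *Slc38a2*, *Slc1a4*, *Slc1a5* and *Slc6a9*. They were taken by gene name from the 24275 genes listed in the count tables, as a list drawn up with earlier results of these data known, and all 10 were found. RNA sequencing of poly-A RNA was made in H9C2, a rat cardiac myoblast line, transfected for 24 h with 25 nmol/L of a mimic and exposed for 24 h to normoxia or hypoxia. The mimics were a mimic control (MC), miR-125b, and 4 isomiRs of it with a changed 3′ end, named Plus A (1 base longer), Trim A (1 base shorter), Trim AG (2 bases shorter) and Trim AGU (3 bases shorter). The question behind the design was how miR-125b and these isomiRs change gene expression in cells under hypoxia. The 11 groups with 3 libraries each were the 5 active mimics (miR-125b and its 4 isomiRs) in normoxia, and MC and the same 5 mimics in hypoxia. For MC in normoxia the values used here were group means made by the authors, so it entered no test. All groups shared the cell line and a culture medium with 10% serum and 2 mM glutamine before the exposure. Hypoxia was applied in serum-free, low-glucose medium and normoxia in fresh medium under normal conditions, so oxygen and medium cannot be told apart in any comparison of hypoxia with normoxia. H9C2 is 1 cell line, and nothing in the labels says that the 3 libraries of a group came from separate cultures, so p-values measure only the spread between these libraries.

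Amino acids enter cells through families of solute carriers that differ in the residues they accept and in the ion or amino acid they carry along. The light chain Slc7a5 (LAT1) exchanges large neutral amino acids such as leucine and works only when joined to the heavy chain Slc3a2 (CD98hc), which also brings the light chain Slc7a6 (y+LAT2) to the membrane. Slc7a1 and Slc7a3 carry the cationic residues arginine and lysine. Slc1a4 and Slc1a5 exchange small neutral amino acids, with glutamine a main substrate of Slc1a5, while Slc38a1 and Slc38a2 take up glutamine and other small neutral amino acids together with sodium, and Slc6a9 (GLYT1) takes up glycine. When amino acids are short or proteins fold badly, the transcription factor ATF4 is made and raises many transporter, biosynthesis and aminoacyl-tRNA synthetase genes, and leucine that enters through Slc7a5 is sensed by the kinase complex mTORC1 at the lysosome.

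The 5 active mimics are shown because they differed only at the 3′ end. The mature rat miR-125b is RefSeq's, at chr11:29732588-29732609 of GRCr8, plus strand (*Mir125b2*). The isomiRs are this sequence with the 3′ change that the paper gives for each. Capitals mark the seed (bases 2 to 8).
miR-125b: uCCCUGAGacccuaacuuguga
Plus A: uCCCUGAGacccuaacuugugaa
Trim A: uCCCUGAGacccuaacuugug
Trim AG: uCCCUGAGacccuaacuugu
Trim AGU: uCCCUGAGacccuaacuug
All 5 held the same seed and had 22, 23, 21, 20 and 19 bases in this order.

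The 33 libraries held 28361216 to 42672584 counted reads, with a median of 29923694. The 3 libraries of Hypoxia Trim AG were the deepest, at 39940087 to 42672584, and no other library had more than 34505938. Some libraries stood apart from the others of their group. The chi-square between 2 libraries of a group, per gene, was 4.75 to 35.3 in the groups other than Hypoxia Trim A, Hypoxia Trim AG and Hypoxia Trim AGU. It reached 73.8 in Hypoxia Trim A, where replicate 1 was the distant library, 96.0 between replicates 1 and 2 of Hypoxia Trim AG, and 218.9 in Hypoxia Trim AGU, where replicate 2 was. Replicate 1 of Normoxia Plus A and replicate 1 of Normoxia miR-125b went against their labels at *Cav1*, a caveolin gene chosen here with its values in view. It had 269, 98.0 and 98.3 CPM (counts scaled to a common library total) with Plus A and 102, 282 and 263 CPM with miR-125b. In hypoxia the range of *Cav1* was 93.9 to 100.2 CPM for the Plus A libraries, against 241 to 246 CPM for those of miR-125b. Over the 166 genes called between these mimics in normoxia once the 2 libraries were left out, replicate 1 of Plus A lay closer to the other libraries of miR-125b at 147 genes, and replicate 1 of miR-125b closer to those of Plus A at 143. The labels were kept as given, and whether the 2 libraries were exchanged was not tested. The myoblast markers *Myod1* (17.1 to 146 CPM over the 33 libraries) and *Cdh15* (190 to 599 CPM) were present in every library. *Myog* had 10.4 to 359 CPM, *Acta1* 17.4 to 181 CPM and *Des* 0.855 to 4.98 CPM. *Myf5* and *Myf6* had at most 0.0703 and 0.165 CPM and were at 0 in 30 and 19 libraries. Of the genes of heart muscle, *Gata4* had 8.72 to 16.4 CPM, *Tnnt2* 9.22 to 316 CPM, *Myl4* 1.77 to 43.1 CPM and *Actc1* 0.0664 to 35.0 CPM, while *Myh6*, *Myh7* and *Nkx2-5* stayed below 1 CPM. Of the 2 leukocyte markers, *Ptprc* had at most 0.188 CPM and *Cd68* had 0.493 to 2.43 CPM. In bulk RNA of this kind, fewer cells of a type and less RNA per cell cannot be told apart.

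Levels of different genes were compared only per length, as FPKM (fragments per kilobase of gene and per fixed number of fragments). *Slc3a2* was the most abundant member, with a mean of 281 FPKM over the 33 libraries, followed by *Slc38a2* at 208 and *Slc7a5* at 150.1 FPKM. *Slc1a4* had 70.1 FPKM, and *Slc6a9*, *Slc1a5*, *Slc7a1* and *Slc7a6* lay close together between 20.7 and 25.6 FPKM. *Slc38a1* and *Slc7a3* were scarce, at 0.939 and 0.226 FPKM, and rested on 21 to 120 and 4 to 63 counts a library. These 2 genes had the widest errors of the 10 in each comparison. The ratio of the highest to the lowest group mean, in CPM, was 8.14 for *Slc7a3*, 4.43 for *Slc6a9* and 4.28 for *Slc38a1*. It was 2.80 for *Slc3a2*, 2.65 for *Slc1a4*, 2.45 for *Slc7a5* and 2.44 for *Slc1a5*, and the smallest ratios were those of *Slc38a2* (1.76), *Slc7a1* (1.39) and *Slc7a6* (1.29). Among the 11 groups with libraries, Normoxia Trim AGU was the lowest for *Slc7a3*, *Slc7a5*, *Slc3a2*, *Slc1a4*, *Slc1a5* and *Slc6a9*. MC in normoxia had no libraries here and was not ranked. In the order of group means of each gene, the libraries of most neighbouring groups overlapped. For *Slc3a2*, those of Hypoxia Plus A, Hypoxia Trim A and Hypoxia miR-125b at the top lay between 765 and 804 CPM.

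**Figure D1:**
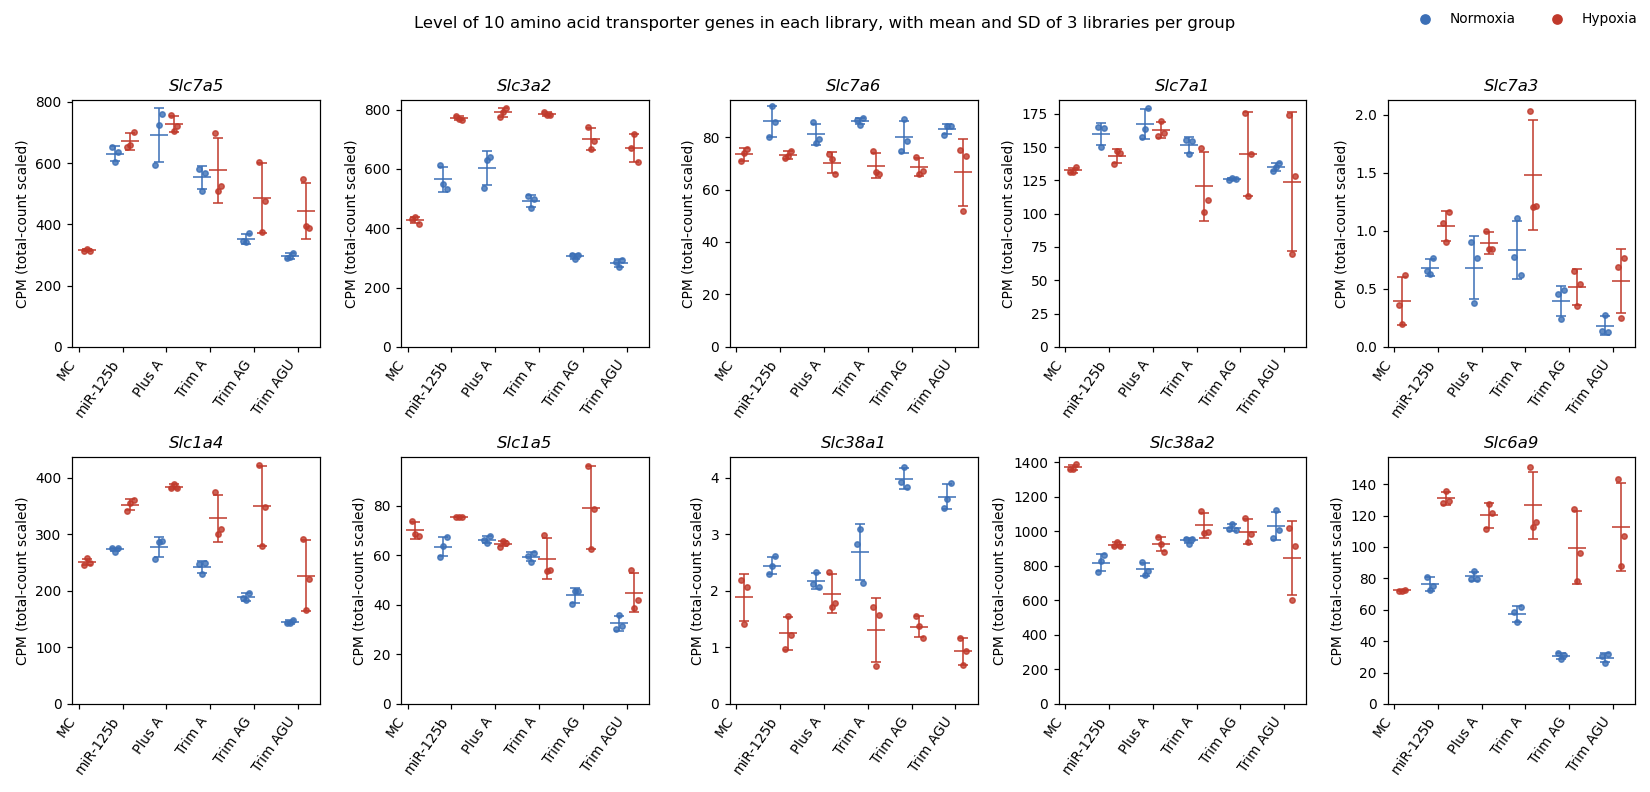
Level of each gene in CPM (vertical axis, from 0) in each library, by mimic (horizontal axis) and oxygen (blue, normoxia; red, hypoxia), where points are the 3 libraries of a group, the wide tick is their mean and the bars are the SD. For *Slc7a5* and *Slc3a2* the 3 libraries of Hypoxia MC lie below those of every other hypoxia group, and in normoxia Trim AG and Trim AGU lie lowest.

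In hypoxia, each of the 5 active mimics had higher *Slc7a5* and *Slc3a2*, the 2 chains of LAT1, than MC. *Slc6a9* was also higher with all 5, by less than 1.5-fold with Trim AG. A gene was called when the adjusted p-value of edgeR's quasi-likelihood test (Benjamini-Hochberg over all genes tested) was below 0.05 and the fold change at least 1.5. By this rule, miR-125b raised 4 of the 10 genes (*Slc7a3*, *Slc7a5*, *Slc3a2*, *Slc6a9*) where 21.9% of all genes tested were called in either direction, Plus A raised these and *Slc1a4* (24.8% of all genes), and Trim A raised the same 4 as miR-125b (28.1%). Trim AG raised *Slc7a5* and *Slc3a2*, 2 of 10 where 37.2% of all genes were called, and Trim AGU raised these 2 and *Slc6a9* (23.8%). None of the 10 was called lower with any mimic by this fit. Leaving out the distant replicate 1 of Trim A, the same 4 genes were called with Trim A, and without replicate 2 of Trim AGU the same 3 with Trim AGU. The share of members called was above that of all genes with miR-125b, Plus A, Trim A and Trim AGU and below it with Trim AG, and none of these shares was tested. The 5 comparisons share the 3 MC libraries, so they are not independent of each other.

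*Slc7a5* had 314, 319 and 313 CPM in replicates 1, 2 and 3 of Hypoxia MC. It had 652, 659 and 702 CPM with miR-125b, 756, 705 and 722 CPM with Plus A and 699, 508 and 524 CPM with Trim A. It had 605, 377 and 475 CPM with Trim AG and 549, 393 and 388 CPM with Trim AGU. Every library of the 5 mimics was above every MC library, and the libraries of Trim A, Trim AG and Trim AGU ranged wider than those of miR-125b. The log2 fold change against MC was 1.13 ± 0.0342 (SE, adjusted p = 1.1e-09) with miR-125b, 1.23 (adjusted p = 2.4e-08) with Plus A, 0.92 (adjusted p = 0.00036) with Trim A, 0.68 (adjusted p = 0.00319) with Trim AG and 0.63 (adjusted p = 0.0184) with Trim AGU. The call with Trim AG fell under the 1.5-fold limit without replicate 1 of Trim AG (0.51), and that with Trim AGU was lost without any 1 MC library (highest adjusted p = 0.0927) and, at 0.49, without replicate 1 of Trim AGU. Leaving out replicate 1 of Trim A gave 0.76.

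The heavy chain gene *Slc3a2* had 431, 436 and 415 CPM with MC. It had 779, 769.6 and 765 CPM with miR-125b, 776, 792 and 804 CPM with Plus A and 794, 783 and 781 CPM with Trim A. With Trim AG it had 742, 666 and 694 CPM and with Trim AGU 672, 718 and 624 CPM. The lowest library of any mimic was well above the highest MC library, and the 9 libraries of Trim A, Plus A and miR-125b lay within a narrow band. Its log2 fold change against MC was 0.89 ± 0.0302 (SE, adjusted p = 2.2e-09) with miR-125b, 0.91 with Plus A and 0.92 with Trim A. It was 0.78 with Trim AG and 0.80 (adjusted p = 0.00663) with Trim AGU. No setting tried took away any of these 5 calls. *Slc7a6*, the other light chain carried by Slc3a2, had 70.8 to 75.4 CPM with MC and 52.0 to 75.2 CPM over the 15 libraries of the mimics. Its log2 fold changes of -0.04 to 0.03 did not pass the test.

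The glycine transporter gene *Slc6a9* had 72.0, 71.9 and 72.9 CPM with MC and 128, 136 and 129 CPM with miR-125b. It had 111, 127 and 122 CPM with Plus A, 151, 112 and 116 CPM with Trim A, 124, 78.2 and 96.0 CPM with Trim AG and 143, 87.9 and 107 CPM with Trim AGU. All mimic libraries were above the MC libraries, and the 3 trimmed isomiRs ranged most. The log2 fold change was 0.89 ± 0.0337 (SE, adjusted p = 4.4e-09) with miR-125b, 0.76 with Plus A, 0.85 with Trim A and 0.77 (adjusted p = 0.0107) with Trim AGU, where the call was lost without any 1 MC library (highest adjusted p = 0.0598). With Trim AG it was 0.52 (adjusted p = 0.0112), under 1.5-fold, and 0.66 without replicate 2 of Trim AG.

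Of the cationic carriers, *Slc7a3* was scarce, with 0.364, 0.201 and 0.618 CPM with MC, 1.07, 0.903 and 1.16 CPM with miR-125b and 2.03, 1.20 and 1.22 CPM with Trim A. Its libraries with miR-125b, Plus A and Trim A lay above every MC library, by log2 fold changes of 1.44 ± 0.376 (SE, adjusted p = 0.00672), 1.20 (adjusted p = 0.0244) and 1.95 (adjusted p = 0.00472). The call with Plus A was lost without replicate 1 or 2 of MC, without replicate 1 of Plus A (highest adjusted p = 0.0806), and with DESeq2 (adjusted p = 0.0563). With Trim AG (0.45) and Trim AGU (0.65) its libraries overlapped those of MC. *Slc7a1*, the more abundant of the pair, was at 132 ± 2.11 CPM (SD, n = 3) in Hypoxia MC and 163 ± 6.03 CPM (SD, n = 3) in Hypoxia Plus A. Its log2 fold change reached 0.32 (adjusted p = 0.00014) with Plus A and was between -0.09 and 0.19 with the others, and it was called with none of them.

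Of the exchangers of small neutral amino acids, *Slc1a4* had 246, 257 and 250.3 CPM with MC and 382, 389 and 382 CPM with Plus A, a log2 fold change of 0.64 ± 0.0398 (SE, adjusted p = 7.2e-07). With miR-125b (342, 355 and 360.4 CPM) its libraries were also above those of MC, at a log2 fold change of 0.53 (adjusted p = 1.6e-07), under 1.5-fold. With Trim A (300 to 375 CPM) and Trim AG (280 to 422 CPM) its libraries lay above those of MC too. *Slc1a4* was called with neither, but with Trim AG its log2 fold change reached 0.67, past 1.5-fold, when 1 library was left out. With Trim AGU its libraries were at 292, 167 and 222 CPM and overlapped those of MC, at a log2 fold change of -0.02 (adjusted p = 0.93). *Slc1a5* had 67.5 to 73.9 CPM with MC, 75.2 to 75.5 CPM with miR-125b and 38.7 to 53.8 CPM with Trim AGU. It was called in none of the 5 comparisons, and its log2 fold change ran from -0.51 (adjusted p = 0.0229) with Trim AGU to 0.24 (adjusted p = 0.15) with Trim AG. It was called lower with Trim AGU, at -0.62, once replicate 1 of Trim AGU was left out.

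The sodium-coupled carrier *Slc38a2* was the only member with libraries lower than those of MC under all 5 mimics. It had 1362, 1364 and 1390.5 CPM with MC, 915, 939.9 and 914 CPM with miR-125b and 965, 928 and 883 CPM with Plus A. Its log2 fold change was -0.54 (adjusted p = 2e-08) with miR-125b, -0.55 (adjusted p = 3.9e-06) with Plus A, -0.36 (adjusted p = 0.00286) with Trim A, -0.39 (adjusted p = 0.00150) with Trim AG and -0.57 (adjusted p = 0.0397) with Trim AGU. By edgeR's TMM scaling all of these were under 1.5-fold, and the last had an adjusted p-value above 0.05 without any 1 MC library or replicate 3 of Trim AGU (highest adjusted p = 0.13). It was called lower with Trim AGU without replicate 1 of Trim AGU, at -0.69, and with no filter on low counts, at -0.59. Its neighbour *Slc38a1* had 2.18, 1.41 and 2.06 CPM with MC and 1.16, 0.690 and 0.940 CPM with Trim AGU, and its log2 fold changes, from -0.89 (adjusted p = 0.0610) with Trim AGU to 0.07 (adjusted p = 0.82) with Plus A, did not pass the test, although with all libraries in 1 fit it was called lower with Trim AGU. Scaling by total counts in place of TMM, edgeR's trimmed mean of M values, moved the median gene by -0.134 on the log2 scale in the comparison of Trim AGU with MC, and by less than 0.1 in the other 4. As ratios of mean CPM by total counts, *Slc7a5* with Trim AGU was 1.41 times MC and so under the 1.5-fold limit, while *Slc38a2* and *Slc1a5* were 0.616 and 0.640 times MC and so past it. The summed level of the 14 myoblast and muscle markers was 1376 to 1404 CPM in Hypoxia MC and 351 to 637 CPM over the 5 mimic groups, with 8 of the 14 at a median of 1 CPM or more, among them *Myod1* and *Myog*. That of the 4 fibroblast markers (3 of 4 at 1 CPM or more) was 25830.2 to 27599.6 CPM in Hypoxia MC, 39135 to 41190.0 CPM with miR-125b and 8009 to 17586 CPM with Trim AG. The fibroblast sum was mostly the collagen genes *Col1a1* and *Col3a1*, with medians of 19824 and 9174 CPM over all libraries. The medians of *Thy1* and *Pdgfra* were 120.5 and 0.291 CPM. The part of these markers in the results was not tested.

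**Figure D2:**
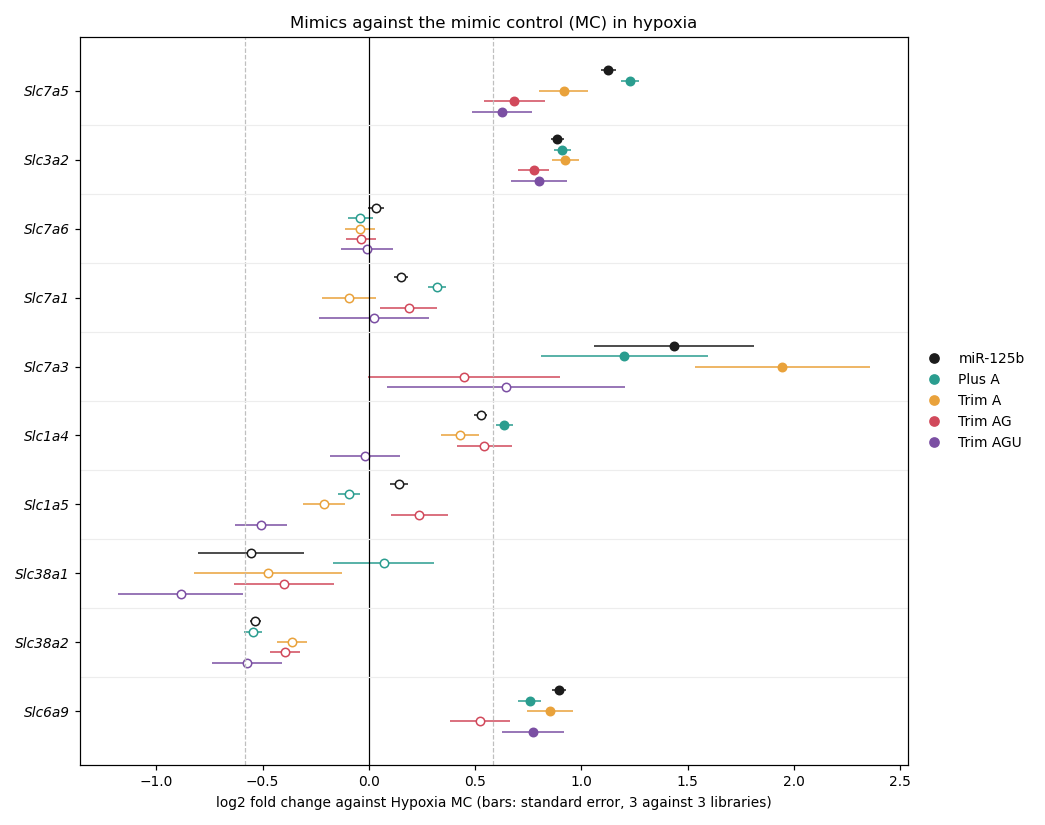
Log2 fold change of each gene (vertical axis) with each mimic against Hypoxia MC (horizontal axis), with standard errors as bars, filled points for genes called, open points for the others and dashed lines at 1.5-fold. *Slc7a5* and *Slc3a2* are filled and right of the upper dashed line with all 5 mimics, while all *Slc38a2* points are open and left of 0.

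For normoxia, the authors' group means of normalized counts set Plus A beside MC, with no error and no test, since these means give no replicates. *Slc7a5* had an authors' mean of 20612 with Plus A and 5752 with MC, a ratio of 3.58, and *Slc3a2* had a ratio of 2.69. The highest ratio was that of *Slc6a9*, with authors' means of 2414 and 417 (ratio 5.79), followed by the scarce *Slc7a3* (4.46). *Slc1a5* (2.04), *Slc1a4* (1.91) and *Slc7a1* (1.67) also had ratios above 1.5, *Slc7a6* had 1.03, and *Slc38a2* (0.757) and *Slc38a1* (0.599) had less with Plus A than with MC. This table was normalized apart from the counts, and the libraries behind each mean are not given in the sources used here, so whether the mean of Plus A holds the replicate 1 that went against its label is not known.

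In normoxia, the shorter isomiRs Trim AG and Trim AGU had lower *Slc7a5*, *Slc3a2* and *Slc6a9* than miR-125b, while Plus A and Trim A had no member called. Against miR-125b, Trim AG had *Slc7a5*, *Slc3a2* and *Slc6a9* called lower and *Slc38a1* called higher, 4 of 10 members where 13.9% of all genes were called. Trim AGU had *Slc7a3*, *Slc7a5*, *Slc3a2*, *Slc1a4*, *Slc1a5* and *Slc6a9* called lower than miR-125b, 6 of 10 where 11.4% of all genes were called. The reference is itself an active mimic, and neither isomiR was compared with MC in normoxia. The median log2 fold change of the members was -0.58 with Trim AG and -0.95 with Trim AGU, beside -0.00145 and -0.00700 over all genes tested. These comparisons share the 3 libraries of Normoxia miR-125b. Without replicate 1 of that group, the library that went against its label, the same members were called with both isomiRs and *Slc1a5* was called as well with Trim AG, at -0.62, as it was with no filter on low counts.

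*Slc7a5* had 652, 605 and 637 CPM with miR-125b in normoxia, 347, 342 and 372 CPM with Trim AG and 290.2, 293 and 307 CPM with Trim AGU. The 3 groups did not overlap, and the spread within each was small beside the gaps between the isomiRs and miR-125b. The log2 fold change was -0.88 ± 0.0550 (SE, adjusted p = 1.2e-05) with Trim AG and -1.09 ± 0.0710 (SE, adjusted p = 0.0001) with Trim AGU. *Slc3a2* had 613, 548 and 532 CPM with miR-125b, 310.4, 296 and 308 CPM with Trim AG and 286, 268 and 292 CPM with Trim AGU. Its libraries with both isomiRs were far below those of miR-125b, with log2 fold changes of -0.93 ± 0.0643 (SE, adjusted p = 1.6e-05) and -1.01 ± 0.0827 (SE, adjusted p = 0.00015). *Slc7a6*, the other partner of Slc3a2, had log2 fold changes of -0.15 and -0.06 with overlapping libraries.

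*Slc6a9* had 81.1, 72.9 and 75.3 CPM with miR-125b, 58.4, 52.0 and 61.8 CPM with Trim A, 32.6, 28.8 and 31.0 CPM with Trim AG and 30.3, 26.3 and 32.1 CPM with Trim AGU. The groups did not overlap between miR-125b, Trim A and the 2 shorter isomiRs, while Trim AG and Trim AGU overlapped each other. The log2 fold change against miR-125b was -1.36 ± 0.0672 (SE, adjusted p = 5.2e-06) with Trim AG and -1.38 ± 0.0957 (SE, adjusted p = 0.00011) with Trim AGU. With Trim A it was -0.41 (adjusted p = 0.0345), under 1.5-fold, and this adjusted p-value was above 0.05 in 6 of 11 other settings, among them each removal of a Trim A library.

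*Slc1a4* had 275, 269 and 276 CPM with miR-125b, 188, 184 and 197 CPM with Trim AG and 143, 143 and 149 CPM with Trim AGU, without overlap between the groups. *Slc1a5* had 59.4, 63.7 and 67.1 CPM, 40.2, 45.4 and 45.7 CPM and 30.4, 35.9 and 31.2 CPM in the same order, again without overlap. With Trim AGU the log2 fold changes of the 2 exchangers were -0.92 ± 0.0679 (SE, adjusted p = 0.00011) and -0.97 ± 0.0902 (SE, adjusted p = 0.0002), and with Trim AG they were -0.57 (adjusted p = 4.3e-05) and -0.58 (adjusted p = 0.00024), just under 1.5-fold. *Slc7a3* had 0.139, 0.276 and 0.132 CPM with Trim AGU and 0.651, 0.626 and 0.765 CPM with miR-125b, and its fold change was -1.89 ± 0.421 (SE, adjusted p = 0.0107) on the log2 scale, resting on 4 to 8 counts a library with Trim AGU. *Slc7a1* had smaller differences, -0.39 (adjusted p = 0.0007) with Trim AG and -0.25 (adjusted p = 0.0328) with Trim AGU. These adjusted p-values were above 0.05 in 1 and 6 of 11 other settings, and highest (0.0874 and 0.31) with all libraries in 1 fit.

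The sodium-coupled carrier *Slc38a1* was higher in normoxia with Trim AG than with miR-125b. *Slc38a1* had 2.29, 2.44 and 2.61 CPM with miR-125b, 3.93, 4.18 and 3.83 CPM with Trim AG and 3.46, 3.62 and 3.90 CPM with Trim AGU, so that both isomiRs lay above miR-125b in every library. The log2 fold change was 0.66 ± 0.149 (SE, adjusted p = 0.00712) with Trim AG and 0.57 (adjusted p = 0.0363), under 1.5-fold, with Trim AGU, whose adjusted p-value was above 0.05 in 10 of 11 other settings. *Slc38a2* had log2 fold changes of 0.28 (adjusted p = 0.00286) and 0.33 (adjusted p = 0.0187) with Trim AG and Trim AGU, also under 1.5-fold. The summed level of the 4 fibroblast markers, mostly *Col1a1* and *Col3a1*, was 32914 to 38388 CPM in Normoxia miR-125b, 21615 to 24471 CPM in Normoxia Trim AG and 24272 to 27209 CPM in Normoxia Trim AGU. That of the 14 myoblast markers was 724 to 769, 801 to 861 and 635 to 688 CPM. Their part in the results was not tested.

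Plus A, which is 1 base longer than miR-125b, had no member past the test in normoxia. edgeR's quasi-likelihood test called 0 of 10 members and 0% of all genes, 0 members had an unadjusted p-value below 0.05 against 404 of 14781 genes, and DESeq2 called 0 members and 1 gene. *Slc7a5* had 593, 726 and 759 CPM with Plus A in normoxia, where replicate 1 was the lowest of the 3. The log2 fold change of *Slc7a5* was 0.14, with an approximate 95% interval (1.96 standard errors on either side) of -0.04 to 0.33, and that of *Slc3a2* was 0.10, with an interval of -0.07 to 0.27. Without replicate 1 of both Normoxia Plus A and Normoxia miR-125b these became 0.28 (adjusted p = 0.0152) and 0.26 (adjusted p = 0.0161), still under 1.5-fold and with 0 members called, while 166 of all genes were then called. Trim A, 1 base shorter, also had 0 members called where 0.414% of all genes were. 5 of its 10 members had an unadjusted p-value below 0.05 against 2758 of 14732 genes, and DESeq2 called 0 members.

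**Figure D3:**
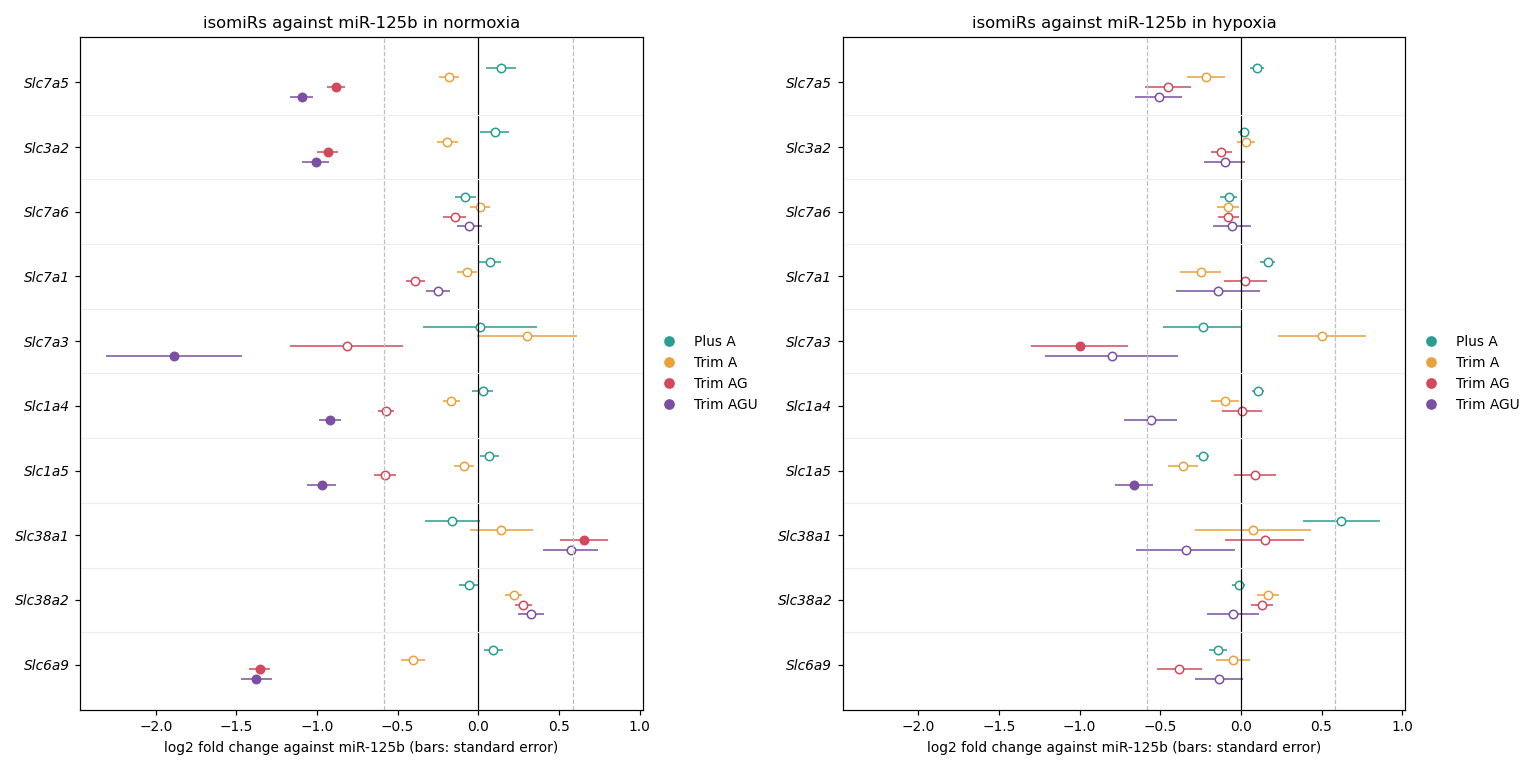
Log2 fold change of each gene (vertical axis) with each isomiR against miR-125b (horizontal axis) in normoxia (left) and hypoxia (right), with standard errors as bars, filled points for genes called and dashed lines at 1.5-fold. In normoxia *Slc7a5*, *Slc3a2* and *Slc6a9* are filled and left of the lower dashed line with Trim AG and Trim AGU, and in hypoxia only *Slc7a3* with Trim AG and *Slc1a5* with Trim AGU are filled.

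In hypoxia, by the same comparison, few members were called between the isomiRs and miR-125b. 0 of 10 were called with Plus A, where 2.03% of all genes were called, and 0 with Trim A (0.873%). 6 and 2 members had an unadjusted p-value below 0.05, against 4722 of 15134 and 3547 of 15115 genes. DESeq2 called 0 members with either isomiR. With Trim AG *Slc7a3* alone was called lower (1 of 10, with 19.3% of all genes called), and with Trim AGU *Slc1a5* alone (1 of 10, with 3.75%). The median log2 fold change of the members was -0.0358 with Trim AG and -0.241 with Trim AGU, beside -0.00190 and -0.0192 over all genes tested. With Trim AGU all 10 members had a log2 fold change below 0. The log2 fold changes with Plus A were -0.24 (adjusted p = 0.00612) for *Slc1a5* and 0.17 (adjusted p = 0.0369) for *Slc7a1*, both under 1.5-fold. These adjusted p-values were above 0.05 in 1 and 6 of 11 other settings, and highest (0.2865 and 0.746) with all libraries in 1 fit. For *Slc7a5* and *Slc3a2* the approximate 95% intervals of the difference between Plus A and miR-125b were 0.01 to 0.18 and -0.05 to 0.09. With Trim A the interval was -0.44 to 0.01 for *Slc7a5* and -0.08 to 0.14 for *Slc3a2*.

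*Slc7a3* had 0.654, 0.351 and 0.539 CPM with Trim AG in hypoxia, all below its libraries with miR-125b, with a log2 fold change of -0.999 ± 0.301 (SE, adjusted p = 0.0284). This call was lost without any 1 library of miR-125b, without replicate 2 or 3 of Trim AG, and with DESeq2 (highest adjusted p = 0.10 without 1 library, 0.0556 with DESeq2). *Slc7a5* was lower with Trim AG by a log2 fold change of -0.45 (adjusted p = 0.0344), under 1.5-fold, and became -0.63 without replicate 1 of Trim AG. *Slc1a5* had 53.8, 38.7 and 42.0 CPM with Trim AGU against 75.3, 75.2 and 75.5 CPM with miR-125b, without overlap, and a log2 fold change of -0.66 ± 0.118 (SE, adjusted p = 0.0339). That call was lost without any 1 library of miR-125b and without replicate 3 of Trim AGU (highest adjusted p = 0.20), and held without replicate 2 (-0.62). *Slc1a4* had a log2 fold change of -0.56 (adjusted p = 0.11) with Trim AGU and *Slc7a5* one of -0.51 (adjusted p = 0.10), neither past the test, although their libraries did not overlap those of miR-125b. Both were called when replicate 1 of Trim AGU was left out, at -0.74 and -0.65. *Slc3a2* did not pass the test, with log2 fold changes of -0.12 (adjusted p = 0.18) with Trim AG and -0.10 (adjusted p = 0.65) with Trim AGU. *Slc6a9* with Trim AG did not pass edgeR's test, while DESeq2 gave -0.37 (adjusted p = 0.0204), under 1.5-fold. *Slc7a6*, *Slc38a1* and *Slc38a2* were called with none of the isomiRs.

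Comparing hypoxia with normoxia under each mimic, *Slc6a9* was higher in hypoxia with all 5, by less than 1.5-fold with Plus A. *Slc38a1* was called lower in hypoxia with miR-125b, Trim A, Trim AG and Trim AGU. With miR-125b, *Slc6a9* was raised and *Slc38a1* lowered, 2 of 10 members where 20.9% of all genes were called. With Plus A, 0 of 10 were called against 22.8% of all genes, and DESeq2 also called 0. With this mimic 6 members had an unadjusted p-value below 0.05, against 8392 of 15032 genes. With Trim A, *Slc3a2* and *Slc6a9* were raised and *Slc38a1* lowered (3 of 10, with 26.5% of all genes called). With Trim AG, *Slc3a2*, *Slc1a4*, *Slc1a5* and *Slc6a9* were raised and *Slc38a1* lowered (5 of 10, with 32.8%), and with Trim AGU, *Slc7a5*, *Slc3a2*, *Slc1a4* and *Slc6a9* were raised and *Slc38a1* lowered (5 of the 9 that passed the filter on low counts, with 27.0%). *Slc7a3* was filtered out of the last comparison for low counts, and was called higher, at 1.95, without replicate 2 of Hypoxia Trim AGU. Without replicate 1 of Normoxia miR-125b the same 2 members were called with miR-125b, and without replicate 1 of Normoxia Plus A still 0 with Plus A.

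*Slc6a9* had 72.9 to 81.1 CPM in normoxia and 128 to 136 CPM in hypoxia with miR-125b, which was 0.69 ± 0.0545 (SE, adjusted p = 8.4e-06) on the log2 scale. It was 0.46 (adjusted p = 0.00032) with Plus A, under 1.5-fold, 1.06 (adjusted p = 0.00016) with Trim A, 1.69 (adjusted p = 2.4e-05) with Trim AG and 1.96 (adjusted p = 0.00046) with Trim AGU. With each mimic every hypoxia library was above every normoxia library, and no setting took the 4 calls away. *Slc3a2* had 268 to 292 CPM in normoxia and 624 to 718 CPM in hypoxia with Trim AGU. Its log2 fold changes were 0.37 with miR-125b and 0.28 with Plus A, both under 1.5-fold, 0.60 (adjusted p = 0.00024) with Trim A, 1.21 (adjusted p = 4.6e-06) with Trim AG and 1.30 (adjusted p = 0.00118) with Trim AGU. The call with Trim A lay at the limit and fell under 1.5-fold without replicate 2 of Normoxia Trim A. Without replicate 2 of Hypoxia Trim AGU the log2 fold change with Trim AGU was 1.17 for *Slc3a2* and 2.05 for *Slc6a9*.

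*Slc7a5*, the light chain gene, was called between hypoxia and normoxia with Trim AGU alone. Its log2 fold change was 0.01 (adjusted p = 0.93) with miR-125b, -0.04 (adjusted p = 0.74) with Plus A and -0.02 (adjusted p = 0.91) with Trim A, against 0.46 (adjusted p = 0.0235) with Trim AG and 0.61 (adjusted p = 0.0234) with Trim AGU. The last call was lost without any 1 library of Normoxia Trim AGU and without replicate 1 of Hypoxia Trim AGU (highest adjusted p = 0.0949), and *Slc7a5* was called with Trim AG, at 0.61, without replicate 2 of Hypoxia Trim AG. *Slc1a4* had 184 to 197 CPM in normoxia and 279.8 to 422 CPM in hypoxia with Trim AG, on the log2 scale a change of 0.89 (adjusted p = 0.00044). With Trim AGU its log2 fold change was 0.67 (adjusted p = 0.0243), where the call was lost without any 1 library of Normoxia Trim AGU and without replicate 1 or 3 of Hypoxia Trim AGU (highest adjusted p = 0.0927). *Slc1a5* had 40.2 to 45.7 CPM in normoxia and 62.7 to 96.1 CPM in hypoxia with Trim AG, without overlap, and a log2 fold change of 0.86 (adjusted p = 0.00071).

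*Slc38a1* had 3.46, 3.62 and 3.90 CPM in normoxia and 1.16, 0.690 and 0.940 CPM in hypoxia with Trim AGU, without overlap. Its log2 fold change was -1.05 (adjusted p = 0.00298) with miR-125b, -1.11 (adjusted p = 0.0230) with Trim A, -1.53 (adjusted p = 0.00013) with Trim AG and -1.94 (adjusted p = 0.00229) with Trim AGU, and with Plus A it was -0.27 (adjusted p = 0.31) with overlapping libraries. The call with Trim A was lost without replicate 1 or 2 of Normoxia Trim A (highest adjusted p = 0.0820). *Slc7a6* had log2 fold changes of -0.40 to -0.22 over the 5 mimics, all under 1.5-fold. *Slc38a2* and *Slc7a1* were called with no mimic, with log2 fold changes of -0.26 to 0.13 and of -0.41 to 0.20. When replicate 1 of Hypoxia Trim A was left out, *Slc7a1* was called lower with Trim A, at -0.59. Scaling by total counts in place of TMM moved the median gene by 0.106 in the comparison of Plus A and by less than 0.1 in the others, and the ratio of mean CPM of *Slc7a5* with Trim AGU was 1.49, just under the 1.5-fold limit. The summed level of the 14 myoblast markers was 635 to 688 CPM in Normoxia Trim AGU and 351 to 448 CPM in Hypoxia Trim AGU. That of the 4 fibroblast markers, mostly *Col1a1* and *Col3a1*, was 13349 to 26422 CPM in Hypoxia Trim AGU. Their part in the results was not tested.

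**Figure D4:**
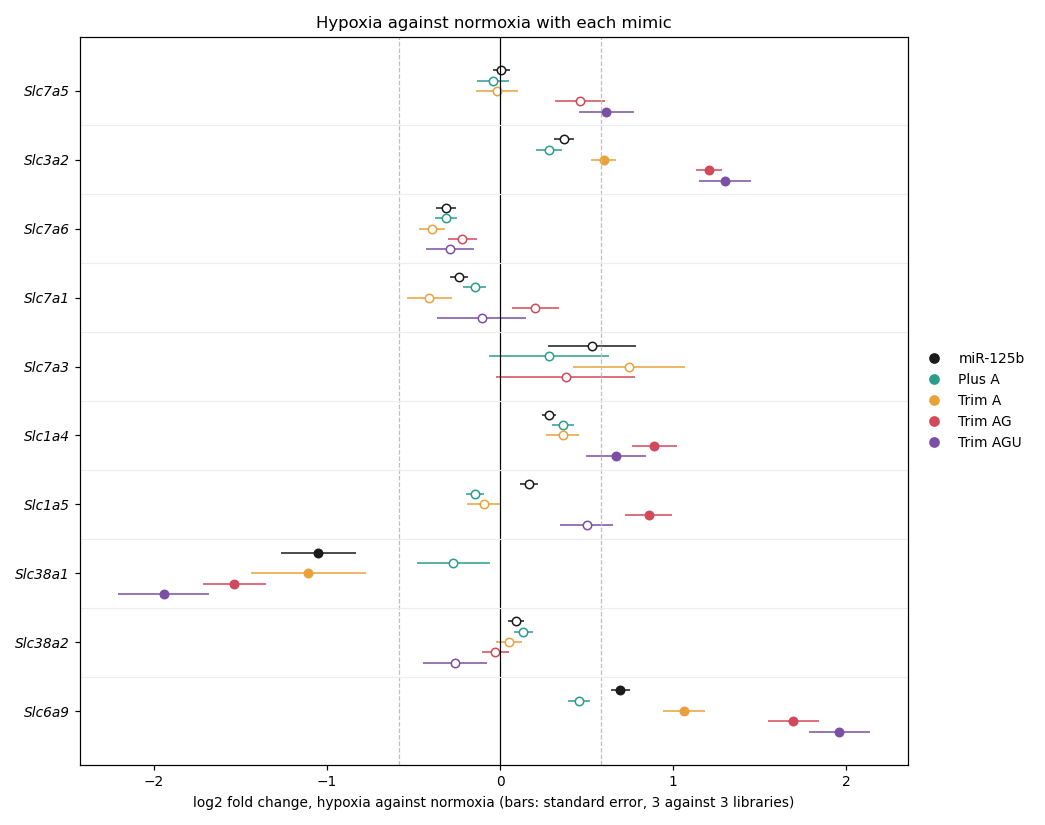
Log2 fold change of each gene (vertical axis) in hypoxia against normoxia under each mimic (horizontal axis), with standard errors as bars, filled points for genes called and dashed lines at 1.5-fold. *Slc6a9* lies right of 0 and *Slc38a1* left of 0 with every mimic, and both lie farthest from 0 with Trim AGU.

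Whether an isomiR differed from miR-125b to another extent in hypoxia than in normoxia was tested by the interaction of isomiR and oxygen, the hypoxia difference minus the normoxia difference on the log2 scale, called at an adjusted p-value below 0.05. With Trim AG, 4 of 10 members were called where 22.7% of all genes were, and with Trim AGU 2 of 10 where 0.966% were. *Slc3a2* had a difference of -0.93 between Trim AG and miR-125b in normoxia and of -0.12 in hypoxia, an interaction of 0.80 ± 0.0926 (SE, adjusted p = 0.00013). The interactions of *Slc6a9*, *Slc1a5* and *Slc1a4* with Trim AG were 0.96 (adjusted p = 0.00193), 0.65 (adjusted p = 0.0106) and 0.57 (adjusted p = 0.0135). No setting took these 4 calls away, and *Slc7a5* and *Slc7a1* were called as well by DESeq2 on all libraries, at 0.45 (adjusted p = 0.0278) and 0.44 (adjusted p = 0.0262), and by edgeR, at 0.56 and 0.55, without replicate 2 of Hypoxia Trim AG. *Slc7a1* was also called with no filter on low counts. For Trim AGU, *Slc6a9* had an interaction of 1.28 ± 0.173 (SE, adjusted p = 0.0103) and *Slc3a2* one of 0.95 ± 0.162 (SE, adjusted p = 0.0228). The call of *Slc6a9* was lost without replicate 1 or 3 of Hypoxia miR-125b (highest adjusted p = 0.0516), and that of *Slc3a2* was lost without any 1 library of Normoxia miR-125b, Hypoxia miR-125b or Normoxia Trim AGU (highest adjusted p = 0.0872). With Trim AGU, the interaction of *Slc7a5* was 0.62 (adjusted p = 0.0837) with edgeR. It passed the test with DESeq2, at 0.60 (adjusted p = 0.0160), with all 33 libraries in 1 fit, and without any 1 library of Hypoxia Trim AGU.

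The interactions with Plus A (0 of 10 called, 0.0385% of all genes) and Trim A (0 of 10, 0.811%) called no member with edgeR's quasi-likelihood test. 3 members had an unadjusted p-value below 0.05 with each, against 2509 of 15569 genes with Plus A and 3481 of 15534 with Trim A. DESeq2 called 1 member with Plus A, *Slc1a5*, and 0 with Trim A. Without replicate 1 of both Normoxia Plus A and Normoxia miR-125b, still 0 members were called with Plus A. Leaving out Hypoxia Trim A replicate 1, the library that stood apart, 3 were called with Trim A: *Slc1a5* at -0.37, *Slc7a1* at -0.34 and *Slc3a2* at 0.24.

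Some members had a like order over the 11 group means, given here as a description, since the groups share mimics and oxygen conditions. Pearson's r of log2 CPM was 0.974 between *Slc3a2* and *Slc6a9*, 0.896 between *Slc3a2* and *Slc1a4* and 0.873 between *Slc1a4* and *Slc1a5* (n = 11 groups). Between the LAT1 chains *Slc7a5* and *Slc3a2* it was 0.792 over all 11 groups, 0.908 over the 6 hypoxia groups and 0.996 over the 5 normoxia groups. *Slc38a1* ran against *Slc6a9* (-0.901) and *Slc3a2* (-0.835), with values of -0.426 and -0.348 over the 6 hypoxia groups and of -0.982 and -0.977 over the 5 normoxia groups. *Slc38a1* and *Slc38a2* lie 48664 bases apart on chromosome 7 in the tables' coordinates (chr7:137975549-138039984 and chr7:138088649-138100841, both on the minus strand, genome build not given in the sources used here), and had an r of 0.126 over all 11 groups, 0.621 over the hypoxia groups and 0.928 over the normoxia groups.

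Among 10172 genes averaging 5 CPM or more, those whose group means followed *Slc3a2* most closely by Pearson's r over the 11 groups were *Mars* (0.980), *Blcap* (0.979) and *Herpud1* (0.979). For *Slc6a9* they were *Bcat2* (0.989), *Sesn2* (0.986) and *Riok3* (0.980), and for *Slc7a5* *Gareml* (0.978), *Sfrp4* (0.958) and *S1pr2* (0.951). The closest gene was *Dgat2* (0.988) for *Slc1a4*, *Sgk1* (0.944) for *Slc1a5*, *Itga4* (0.980) for *Slc38a1*, *Cyp51* (0.967) for *Slc7a6*, *Gstz1* (0.946) for *Slc7a3*, *Kcnk5* (0.867) for *Slc7a1* and *AABR07033745.1* (0.963) for *Slc38a2*.

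**Figure D5:**
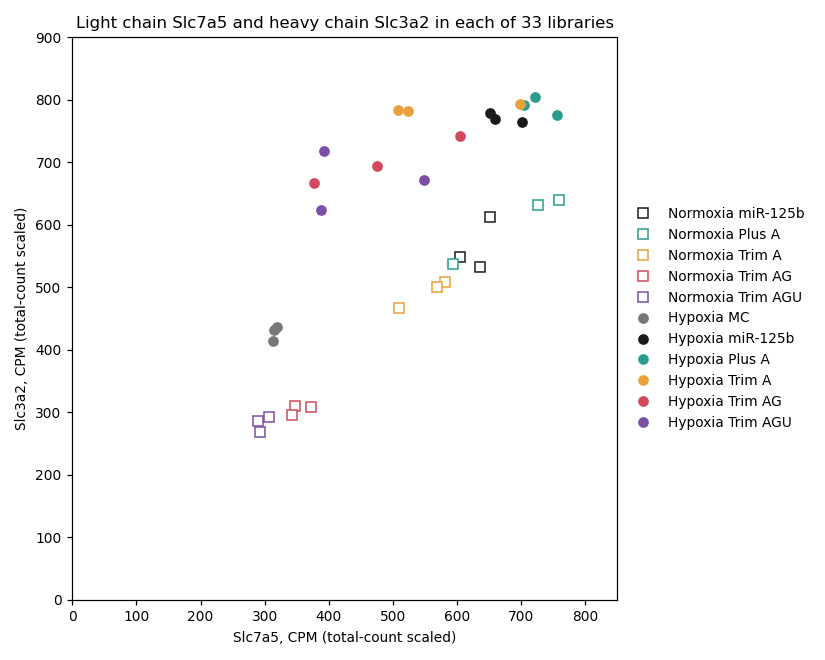
Level of *Slc3a2* (vertical axis, CPM) against *Slc7a5* (horizontal axis, CPM) in each of the 33 libraries, by mimic (colour) and oxygen (open squares, normoxia; filled circles, hypoxia). The normoxia libraries of Trim AG and Trim AGU lie lowest on the *Slc3a2* axis, at 268 to 310.4 CPM, Hypoxia MC lies next at 415 to 436 CPM, and the other hypoxia libraries lie at 624 to 804 CPM of *Slc3a2* over 376.7 to 755.6 CPM of *Slc7a5*.

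Other genes of the pathway were counted from lists chosen with results of these data known. Of 36 other amino acid transporter genes, 32 were listed in the tables and 18 or 19 passed the filter on low counts. In hypoxia against MC, 1 rose and 7 of 18 fell with miR-125b, 2 and 6 of 18 with Plus A, 0 and 7 of 19 with Trim A, 1 and 10 of 19 with Trim AG, and 0 and 8 of 19 with Trim AGU, where 21.9%, 24.8%, 28.1%, 37.2% and 23.8% of all genes were called in either direction. Their median log2 fold change was -0.39 with miR-125b, beside 0.34 for the 10 members and 0.00 for all genes. *Slc43a2* (LAT4), a sodium-independent carrier of large neutral amino acids, fell by 1.05 on the log2 scale with miR-125b and by 2.04 with Trim AG. *Slc43a1* (LAT3), a carrier of the same residues, rose by 0.67 with miR-125b and 0.93 with Trim AG. *Slc6a7*, a proline transporter gene, fell by 0.88 with miR-125b and *Slc38a4*, a system A gene, by 0.83.

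Of 30 genes of the ATF4 response, 8 rose and 0 fell in hypoxia with miR-125b against MC, 10 and 2 with Plus A, 12 and 3 with Trim A, 15 and 4 with Trim AG, and 14 and 1 with Trim AGU, beside the same shares of all genes (21.9% with miR-125b to 37.2% with Trim AG). The 8 of 30 with miR-125b lay near its share of all genes. *Ddit3*, the stress transcription factor CHOP, rose by 1.27 on the log2 scale with miR-125b and *Psph*, a serine synthesis enzyme, by 1.24. Of 20 aminoacyl-tRNA synthetase genes listed, 7, 10, 9, 13 and 11 rose with miR-125b and its isomiRs (from the longest to the shortest), and 1 fell, *Wars* with Trim AG (-0.83). In normoxia against miR-125b, 15 of 27 ATF4 response genes fell with Trim AG and 18 of 27 with Trim AGU, with 0 higher with either, and 6 and 6 of 20 synthetase genes fell, where 13.9% and 11.4% of all genes were called. *Nupr1*, a stress-response gene, fell by 3.13 and 3.70 with these isomiRs, and *Trib3*, a pseudokinase induced by ATF4, by 1.92 and 1.80. The median log2 fold change of the ATF4 list was -0.61 with Trim AG and -0.91 with Trim AGU, beside -0.58 and -0.95 for the 10 transporter genes.

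Between hypoxia and normoxia, 6 of 29 ATF4 response genes rose and 2 fell with miR-125b, where 20.9% of all genes were called. With Plus A 7 of 29 rose and 3 fell (22.8% of all genes), and with Trim A 12 of 29 rose and 1 fell (26.5%). With Trim AG 19 of 28 rose and 0 fell (32.8%), and with Trim AGU 20 of 28 rose and 0 fell (27.0%). Synthetase genes that rose numbered 0 of 20 with miR-125b, 1 with Plus A and 3 with Trim A. They numbered 10 with each of Trim AG and Trim AGU, and 1 gene fell, with Plus A. The interaction of isomiR and oxygen was called above 0 in 22 of 29 ATF4 response genes with Trim AG and 13 with Trim AGU, and in 16 and 6 of 20 synthetase genes, where 22.7% and 0.966% of all genes were called. Of 26 genes of amino acid sensing by mTORC1, 1 rose and 1 fell with miR-125b against MC in hypoxia, and 4 and 2 with Trim AG, shares below the 21.9% and 37.2% of all genes called. *Lamtor1*, a subunit of the lysosomal Ragulator complex, rose by 0.77 and *Mlst8*, an mTOR complex subunit, fell by 0.69 on the log2 scale with miR-125b, and *Sesn3*, a sestrin, fell by 1.91 with Trim AG.

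In normoxia, 6 members and 18 ATF4 response genes were called lower with Trim AGU than with miR-125b. RefSeq promoters (GRCr8, 250 bases before to 50 after the start) were therefore searched on both strands for TGATGNAA. These are the core letters of the amino acid response element where ATF4 and a C/EBP partner can bind. The tables held 9 promoters of 8 members. The letters were in 3 of these 9 and in 1332 of all 33469 promoters (3.98%). The windows around the 3 matches, read along the gene's strand with the matched letters in capitals, are shown as examples of where they lie, at chr12:11664447-11664476 (plus strand), chr14:98761779-98761808 (minus strand) and chr7:129681525-129681554 (minus strand) of GRCr8.
Slc7a1: cggcgcgcggcTGATGAAAccggctcggat
Slc1a4: cgcctccagcgTTGCATCAtccagccagca
Slc38a1: gggggaaactcTGATGCAAccaaccagtcc
The matches began at -30, -235 and -142 from the start, and that of *Slc1a4* was the reverse complement TTNCATCA. Of these 3 genes only *Slc1a4* was called lower with Trim AGU in normoxia, while *Slc7a1* and *Slc38a1* were not called, with log2 fold changes of -0.25 and 0.57, and the promoters of *Slc7a5*, *Slc3a2* and *Slc6a9* that were searched had no match. They did not overlap ACGTG, the core letters of the hypoxia response element, which were in 4 of the 9 promoters (of *Slc3a2*, *Slc1a4*, *Slc7a6* and *Slc7a5*) and in 19.3% of all. A match describes letters in a window and was not tested for binding.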

How the data were processed

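RNA-seq libraries of H9C2 cells were made by the authors with a non-stranded poly-A method, so reads of overlapping genes, antisense genes and near-identical copies could not be told apart. The submitters' processing notes name HISAT2 and StringTie, with no role or version, and the counting tool and genome build are not given in the sources used here. The authors deposited raw read counts per gene and FPKM values for 33 libraries. For Normoxia MC a table of group means of normalized counts was used, a signal made by the authors with no replicates. The deposited tables also hold the authors' fold changes and p-values, which were not used.

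The count tables were joined on gene identifiers, with an absent gene set to 0, and CPM was taken over the total count of 28361216 to 42672584 reads a library. Each comparison was fitted to the 6 libraries of its 2 groups, or to 12 libraries for an interaction, with edgeR 4.0.16 in R 4.3.3 (TMM, filterByExpr, quasi-likelihood F test, Benjamini-Hochberg over all genes tested). The limits for a call were 0.05 for the adjusted p-value and 1.5 for the fold change, and interactions needed the p-value alone. The scripts were tested on simulated data. Alternatives were RLE size factors, no filter on low counts, the replicate number as a block, DESeq2 1.42.0, all 33 libraries in 1 fit, leaving out each library in turn, and leaving out replicate 1 of both Normoxia Plus A and Normoxia miR-125b. Same-numbered libraries deviated together (every correlation over 0.1) in 1 of 55 pairs of groups, which is not a pair compared here, so the numbers were not taken to pair libraries. Tables and figures were made with Python 3.11.15, pandas 2.3.3, numpy 2.4.6 and matplotlib 3.10.9.

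The transporter genes and the other lists were chosen with earlier results of these data known. All 10 genes were read in every comparison, except that *Slc7a3* was filtered out of hypoxia against normoxia with Trim AGU. The text does not give the value of every gene in every comparison. From the other lists at most 3 called genes per direction with a mean of at least 1 CPM were named, and the 3 genes most like each member were taken by Pearson's r over 11 group means of log2(CPM + 0.5) among genes averaging 5 CPM or more. Promoter and miRNA sequences were RefSeq's (GRCr8). The endothelial markers *Pecam1*, *Cdh5* and *Kdr* were not found by name among the 24275 genes listed, so they have no values here.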

Additional observations from a re-analysis of the deposited data

Results flagged for a closer look

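For 6 results, the difference between an isomiR and miR-125b was not the same in hypoxia as in normoxia, by the test of the difference itself (the interaction of isomiR and oxygen, edgeR's quasi-likelihood test over all genes). With Trim AG the hypoxia difference minus the normoxia difference, on the log2 scale, was 0.802 for *Slc3a2*, 0.570 for *Slc1a4*, 0.654 for *Slc1a5* and 0.962 for *Slc6a9*. With Trim AGU it was 0.948 for *Slc3a2* and 1.28 for *Slc6a9*, and these 2 calls were lost in 10 and 2 of 17 other settings. The 4 calls with Trim AG were lost in none of 17. All 6 values were above 0. In normoxia the isomiR was below miR-125b in all 6, and in hypoxia it was below by less in 4, while *Slc1a4* and *Slc1a5* with Trim AG had log2 fold changes of 0.01 and 0.09 against miR-125b there, neither past the test. The 2 isomiRs share the libraries of Normoxia miR-125b and Hypoxia miR-125b, so the values with Trim AG and Trim AGU are not independent of each other.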

How the results depend on the processing

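Of 268 counts of called members recomputed under an alternative, 230 were within 1.5 times the reported count and 38 were not. DESeq2 called 0 members in place of 1 for Trim AG against miR-125b in hypoxia, and 1 in place of 0 for the interaction of Plus A. The replicate block gave 0 in place of 1 for Trim AGU against miR-125b in hypoxia, 3 in place of 5 for hypoxia against normoxia with Trim AGU, and 1 in place of 2 for the interaction of Trim AGU, for which all libraries in 1 fit gave 4. The block moved no other count by over 1.5 times, and the numbers of the replicates were not taken to pair libraries. Leaving out 1 library gave 1 to 4 members called for Trim AG against MC, 1 to 4 for Trim AGU against MC, 0 to 2 for Trim AG against miR-125b and 0 to 3 for Trim AGU against it, both in hypoxia, 1 to 4 and 3 to 6 for hypoxia against normoxia with Trim A and Trim AGU, and 0 to 3 and 0 to 4 for the interactions of Trim A and Trim AGU. The cause of these moves was not tested, but a fit without a library has fewer samples. Of 1037 recomputed fold changes of members with an adjusted p-value below 0.05, 899 kept direction and side of the threshold, 138 fell on the other side of it and 0 turned direction. Depth limits *Slc7a3* and *Slc38a1*, which had 4 to 63 and 21 to 120 counts a library.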
